A study of Mus musculus with 84 samples.

Results

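The NMDA receptor subunit family was examined in ventrolateral striatum as the 7 genes Grin1, Grin2a, Grin2b, Grin2c, Grin2d, Grin3a and Grin3b, found by symbol among the 43629 genes of the deposited count table. All 7 were present once and all passed the filter on low counts. Bulk RNA was sequenced from 84 adult, naive mice at S4 of 2 strains, SOT and NOT, which come from selection on ethanol preference together with ethanol withdrawal. The labels place 44 animals (21 female, 23 male) in the High Drinker group and 40 animals (18 female, 22 male) in the Low Drinker group; they do not say which strain name goes with which group, nor which animals are littermates. None of the animals was treated, and no allele, transgene or exact age is named for either group. Each library came from 1 animal and was read to between 22190363 and 41300401 counted reads, with medians of 31877407 in High Drinker against 30874656.5 in Low Drinker libraries.

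NMDA receptors are glutamate-gated cation channels that need both glutamate and a co-agonist, glycine or D-serine, and pass calcium when the membrane is depolarised. Each receptor is a tetramer built on the obligatory GluN1 subunit (Grin1), which binds the co-agonist, together with GluN2 subunits (Grin2a to Grin2d), which bind glutamate and set the channel's kinetics and magnesium block, or GluN3 subunits (Grin3a, Grin3b), which bind glycine and lower calcium entry. In striatum the receptors receive cortical and thalamic glutamate on medium spiny neurons, and ethanol is a known inhibitor of these channels.

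All 7 genes are protein coding. On build mm10 the GENCODE annotation places Grin1 (ENSMUSG00000026959) at chr2:25291181-25319187, Grin2a (ENSMUSG00000059003) at chr16:9567898-9995560, Grin2b (ENSMUSG00000030209) at chr6:135713233-136173511, Grin2c (ENSMUSG00000020734) at chr11:115249169-115267243, Grin2d (ENSMUSG00000002771) at chr7:45831883-45878378 and Grin3a (ENSMUSG00000039579) at chr4:49661611-49845744, all on the minus strand. Grin3b (ENSMUSG00000035745) lies on the plus strand at chr10:79970715-79977190. The 7 genes thus sit on 7 chromosomes, and none shares a locus with another. Counts are summed over exons, UTRs included, and the counted length ran from 3296 bases for Grin3b to 24773 bases for Grin2b. Grin2a was counted over 5296 bases, a difference of -12637 bases from the union of its exons in the GENCODE annotation, so much of its annotated exon sequence gave no counts. Exons of an antisense transcript, Grin1os, cover 13.5% of the exon bases of Grin1, those of Gm45441 cover 9.66% of Grin2d, and those of the widely expressed gene Tmem259 cover 32.1% of Grin3b. The protocol as described names no step that marks strand and the strand setting of counting was not given, so the part of such reads in these levels is unknown and the level of Grin3b is uncertain.

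Promoters are shown for the member with the highest level per length, a member higher in High Drinker animals and the member with the lowest level, because they differ widely in base composition. Each is the 250 bases before the RefSeq start on GRCm38.p6, 5' to 3' on the gene's strand, with CpG dinucleotides in capitals. They lie at chr2:25319188-25319437 (minus strand), chr11:115267244-115267493 (minus strand) and chr10:79970474-79970723 (plus strand).
Grin1 promoter: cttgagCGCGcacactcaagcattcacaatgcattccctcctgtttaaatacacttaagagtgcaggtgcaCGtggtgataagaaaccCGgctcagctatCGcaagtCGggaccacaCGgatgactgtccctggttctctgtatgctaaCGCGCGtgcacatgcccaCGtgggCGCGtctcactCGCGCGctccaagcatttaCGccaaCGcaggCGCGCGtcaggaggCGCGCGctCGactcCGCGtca
Grin2c promoter: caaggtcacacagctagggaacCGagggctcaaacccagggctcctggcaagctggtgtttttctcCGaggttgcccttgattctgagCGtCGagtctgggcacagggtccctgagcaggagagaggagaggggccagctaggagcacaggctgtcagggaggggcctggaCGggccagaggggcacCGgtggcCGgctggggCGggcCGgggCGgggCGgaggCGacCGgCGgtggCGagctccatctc
Grin3b promoter: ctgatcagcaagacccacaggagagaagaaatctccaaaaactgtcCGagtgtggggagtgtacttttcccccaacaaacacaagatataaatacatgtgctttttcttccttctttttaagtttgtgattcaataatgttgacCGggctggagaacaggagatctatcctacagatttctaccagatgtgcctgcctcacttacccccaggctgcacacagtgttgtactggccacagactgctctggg
The Grin1 promoter holds 27 CpGs at 58.8% GC, and 8.56% of the 32851 RefSeq promoters of this length hold at least as many. The Grin2c promoter holds 15 CpGs and 3 GC boxes, while that of Grin3b holds 2 CpGs at 46% GC and 1 TATAAA. The GC box was searched as GGGCGG and the other motif as TATAAA, on both strands and with no overlap between the 2 motifs. At least 1 GC box is held by 32.7% of all these promoters and TATAAA by 12.4%, and the median promoter holds 6 CpGs. The Grin2d promoter, which lies inside the gene as the GENCODE annotation draws it, holds 9 CpGs, no GC box and no TATAAA. Sequences for 4 of the 7 members were matched by symbol, and Grin2a, Grin2b and Grin3a are only named.

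A pair of quantities is used below for each gene. CPM is the library-size-scaled count (counts per 1e+06 counted reads) after TMM scaling of library sizes, and serves to compare 1 gene between animals. CPM per kb divides it by the counted length and serves to compare genes. The line difference is a log2 fold change, High over Low Drinker, from edgeR's quasi-likelihood test with sex and sheet set as terms, a sheet set being 1 of 3 runs of sample-sheet numbers in the sample titles. Of the 17071 genes tested, 672 (3.94%) passed at a Benjamini-Hochberg adjusted p of 0.05: 317 (1.86%) with higher and 355 (2.08%) with lower levels in High Drinker animals. Of the 7 NMDA receptor genes 2 passed, Grin2b and Grin2c, both higher in High Drinker animals, with 4 of 7 under an unadjusted p of 0.05 against 18% of all tested genes. Of the 7 fold changes, 6 were positive, with a median of 0.13, against 50.6% positive and a median of 0.001 over all tested genes. The members are not independent, since Grin2a and Grin2b varied together (r = 0.85, below), so the signs are a description only. In bulk tissue, a difference in the number of cells of a type cannot be told apart from a difference in RNA per cell.

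**Figure D1:**
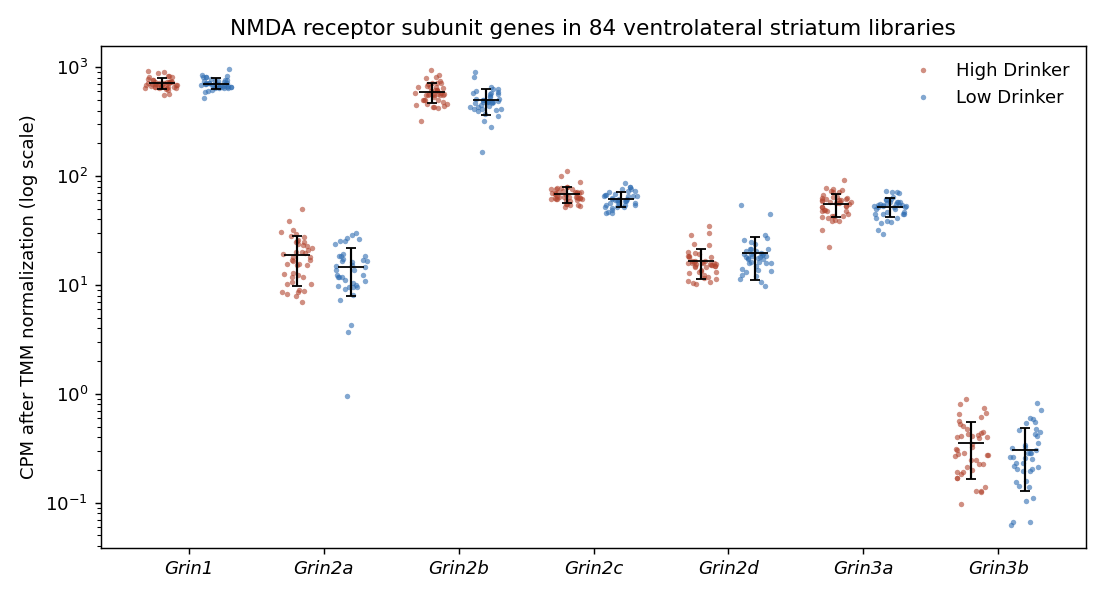
CPM of each NMDA receptor gene (log axis) in every library, High Drinker (44 animals) left of Low Drinker (40 animals); each point is 1 animal, and the bars mark the mean and SD. The groups overlap for all 7 genes, and the mean of Grin2b is 591 CPM in High Drinker against 496 CPM in Low Drinker animals.

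Grin1, encoding the subunit that every NMDA receptor needs, had a line difference that did not pass the threshold. Its lowest, median and highest values were 557, 703 and 917 CPM in High Drinker animals, against 521, 699 and 969 CPM in Low Drinker animals. The ranges overlapped almost entirely, and 24 of 44 High Drinker animals lay above the Low Drinker median. The log2 fold change was 0.03 ± 0.04 (SE; edgeR quasi-likelihood test, adjusted p = 0.718). Grin1 was also the steadiest member, with a residual SD of 0.15 on the log2 CPM scale after line, sex and sheet set were removed, below the 0.26 of the median tested gene.

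Grin2b encodes GluN2B, the slow-deactivating glutamate-binding subunit that is prominent in forebrain, and was the member that differed most clearly between lines. High Drinker animals had 323, 569 and 942 CPM (lowest, median, highest), against 166, 481 and 903 CPM in Low Drinker animals. The ranges overlapped, but 36 of 44 High Drinker animals lay above the Low Drinker median. Means were 591 ± 125 CPM in High Drinker against 496 ± 130 CPM in Low Drinker animals (SD), a log2 fold change of 0.29 ± 0.08 (SE; edgeR quasi-likelihood test, adjusted p = 0.0168). The fold change was positive in both sexes but passed in neither alone, at 0.26 in females (edgeR adjusted p = 0.546) and 0.35 in males (edgeR adjusted p = 0.103). Females had 588 ± 115 CPM in High Drinker (n = 21), against 502 ± 149 CPM in Low Drinker animals (n = 18). Males had 594 ± 137 CPM in High Drinker (n = 23), against 492 ± 116 CPM in Low Drinker animals (n = 22). Within sheet set 1 the means were 586 ± 128 CPM in 30 High Drinker against 456 ± 112 CPM in 18 Low Drinker animals, and within sheet set 2 they were 619 ± 135 CPM in 11 High Drinker against 536 ± 141 CPM in 19 Low Drinker animals. Fitted within 1 set, the log2 fold change was 0.36 (adjusted p = 0.100) in set 1 and 0.19 (adjusted p = 0.913) in set 2 by the same edgeR test, so the call was made only with the sets together. The call held without either extreme library: without High Drinker 11, the highest, it was 0.27 (adjusted p = 0.0223), and without Low Drinker 8, the lowest, 0.26 (adjusted p = 0.0264). It was lost, and the fold change was 0.14 (edgeR adjusted p = 0.0718), with an index of long against short genes in the model, described after the co-variation of the subunits.

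Grin2c encodes GluN2C, a subunit of low magnesium sensitivity known from cerebellar granule cells and, in forebrain, from astrocytes. High Drinker animals had 51.9, 65.4 and 112 CPM (lowest, median, highest), against 45.5, 60.7 and 85.8 CPM in Low Drinker animals. The groups overlapped, with 35 of 44 High Drinker animals above the Low Drinker median. The difference was small, 68.4 ± 11.6 CPM in High Drinker against 61.8 ± 9.81 CPM in Low Drinker animals (SD), and its log2 fold change of 0.16 ± 0.05 (SE) lay just inside the threshold (edgeR quasi-likelihood test, adjusted p = 0.0469). High Drinker means were the higher in each sheet set, at 66.8 against 60.1 CPM in Low Drinker in set 1, 71.2 against 62.8 CPM in set 2 and 73.8 against 65.8 CPM in set 3. The call did not hold when library sizes were scaled by RLE (0.16, adjusted p = 0.0514) or without the 5 libraries that stand apart in expression (Low Drinker 8, 32, 33 and 34, with High Drinker 17; 0.17, adjusted p = 0.0678).

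Grin2a encodes GluN2A, the faster subunit that joins mature synapses. High Drinker animals had 6.97, 17.6 and 50.4 CPM (lowest, median, highest), against 0.948, 13.7 and 29.8 CPM in Low Drinker animals. Its values ran over a far wider range than those of Grin1: the residual SD was 0.78 on the log2 scale, larger than that of 93.5% of tested genes. The log2 fold change of 0.42 ± 0.16 (SE), the largest of the 7, did not pass (edgeR quasi-likelihood test, adjusted p = 0.133), and 29 of 44 High Drinker animals lay above the Low Drinker median. High Drinker 11 held the highest value of both Grin2a and Grin2b, and Low Drinker 8 held the lowest of Grin2a, Grin2b and Grin1.

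Grin2d encodes GluN2D, the slowest subunit, which in forebrain is known from interneurons, and it was the only member with a negative fold change. High Drinker animals had 10.2, 15.7 and 34.7 CPM (lowest, median, highest), against 9.81, 18.1 and 54.8 CPM in Low Drinker animals. Only 11 of 44 High Drinker animals lay above the Low Drinker median. The log2 fold change was -0.18 ± 0.09 (SE) and did not pass (edgeR quasi-likelihood test, adjusted p = 0.254). The 2 highest values, 54.8 and 45.4 CPM, belonged to Low Drinker 2 and 3, both female and both in sheet set 3. In sheet set 2 the means were 18.5 ± 6.73 CPM in High Drinker against 18.9 ± 3.13 CPM in Low Drinker animals, closer to each other than in set 1, where they were 14.9 ± 3.15 CPM in High Drinker against 17.2 ± 5.30 CPM in Low Drinker animals.

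The GluN3 genes did not pass. Grin3a, whose product lowers calcium entry through receptors that hold it, had 22.4, 57.1 and 92.7 CPM in High Drinker animals (lowest, median, highest) and 29.2, 53.3 and 72.6 CPM in Low Drinker animals. The ranges overlapped, with both the lowest and the highest value in High Drinker animals, and the log2 fold change was 0.11 ± 0.07 (SE; edgeR quasi-likelihood test, adjusted p = 0.457). Grin3b was close to the limit of detection, with 2 to 26 reads per library. It had 0.0970, 0.307 and 0.891 CPM in High Drinker animals and 0.0626, 0.263 and 0.828 CPM in Low Drinker animals, with a log2 fold change of 0.13 ± 0.16 (SE; edgeR quasi-likelihood test, adjusted p = 0.746). At this depth, and with the overlap with Tmem259, no difference in Grin3b was detectable.

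**Figure D2:**
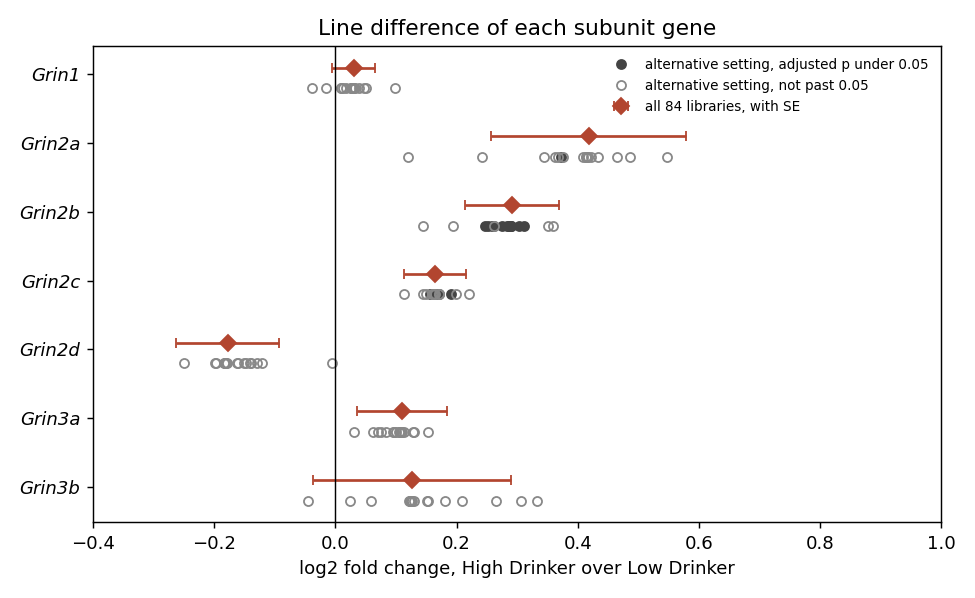
Log2 fold change of each NMDA receptor gene, High over Low Drinker, in the fit to all 84 libraries (diamonds, bars are SE) and under 18 alternative settings (circles, filled where the adjusted p was under 0.05). Grin2b was positive and Grin2d negative under all 18, while Grin1 lay between -0.0382 and 0.099.

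No member passed for sex or for the combination of line and sex. For the sex difference 0 of 7 passed by edgeR's quasi-likelihood test, against 17 genes (0.0996%) over the whole table. None of the 7 had an unadjusted p under 0.05, against 4.03% of all genes, and 0 passed with limma-voom. For the line-by-sex interaction 0 of 7 passed by edgeR or limma-voom, as did 0 of all 17071 genes (965, or 5.65%, at an unadjusted p under 0.05, and 1 member). The smallest unadjusted interaction p among the members was 0.0483, for Grin1 (adjusted p = 0.784 by edgeR). Grin1 averaged 737 ± 80.0 CPM in High Drinker females and 689 ± 92.8 CPM in Low Drinker females, and 692 ± 74.5 CPM in High Drinker males and 725 ± 66.7 CPM in Low Drinker males. The series names differential variance as an aim. Variability between animals, taken as absolute deviation from the median of line, sex and set on the log2 scale, differed between lines for 0 of 7 members and 0 of all genes by limma (0 members and 385 genes, 2.26%, at an unadjusted p under 0.05), and with squared deviations 0 members passed. The mean deviation of Grin3a was 0.27 in High Drinker against 0.18 in Low Drinker animals, the widest gap among the members (adjusted p = 0.999961 by limma).

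The order of levels per length was the same in nearly every animal at its upper end. Averaged over 84 libraries, Grin1 stood at 73.3 CPM per kb, Grin2b at 22.03, Grin2c at 12.95, Grin3a at 4.40, Grin2a at 3.20, Grin2d at 3.06 and Grin3b at 0.101 CPM per kb. Grin1 was above Grin2b in 84 of 84 libraries, Grin2b above Grin2c in 79, and Grin2c above Grin3a in 84. Grin3a was above Grin2a in 68 libraries. Grin2a was above Grin2d in only 44 of 84, so these neighbours do not differ beyond their spread. These levels depend on the length used: the coding length is 4446 bases for Grin2b, against a counted length of 24773 bases, and 4392 bases for Grin2a, against 5296 bases counted. For Grin2c the coding length is 3717 bases against 5037 counted, and for Grin3a 3405 against 12275. The order can change with it: High Drinker 18 had 92.7 CPM of Grin3a and 51.9 CPM of Grin2c, so by coding length Grin3a is the higher there.

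Within the GluN2 genes, Grin2b made up 54.1 ± 4.79% of the summed CPM per kb in High Drinker against 51.5 ± 7.03% in Low Drinker animals (SD). The Grin2c share was 31.5 ± 5.94% in High Drinker against 32.6 ± 6.51% in Low Drinker animals. Grin2a made up 7.89 ± 2.82% in High Drinker against 7.03 ± 2.65% in Low Drinker animals, and Grin2d 6.54 ± 2.14% in High Drinker against 8.89 ± 3.94% in Low Drinker animals. Each of these differences in share was smaller than the SD between animals of either line, except for Grin2d, where it exceeded the SD in High Drinker animals but not that in Low Drinker animals. The SD describes single animals and does not tell whether the mean shares of the lines differ, which was not tested. With coding length in place of counted length, the Grin2b share became 82.8% in High Drinker against 81.0% in Low Drinker animals. In the same setting Grin2c took 11.9% in High Drinker against 12.8% in Low Drinker animals, Grin2d 2.69% in High Drinker against 3.87% in Low Drinker animals, and Grin2a 2.59% in High Drinker against 2.37% in Low Drinker animals. Relative to Grin1, the summed GluN2 level was -0.75 ± 0.21 in High Drinker against -0.94 ± 0.24 in Low Drinker animals as a log2 ratio (SD), and 35 of 44 High Drinker animals lay above the Low Drinker median of that ratio. The log2 ratio of Grin2b to Grin2a, an index often followed through development, was 2.87 ± 0.46 in High Drinker against 2.997 ± 0.58 in Low Drinker animals. These ratios use the counted lengths, and their size depends on that choice as the shares do. Neither shares nor ratios were adjusted for sex, sheet set or the index of long against short genes described below. Residual Grin2b had r = 0.83 with that index and Grin1 r = 0.21, so a ratio of the 2 also varies with it. They are given as descriptions, with no test.

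**Figure D3:**
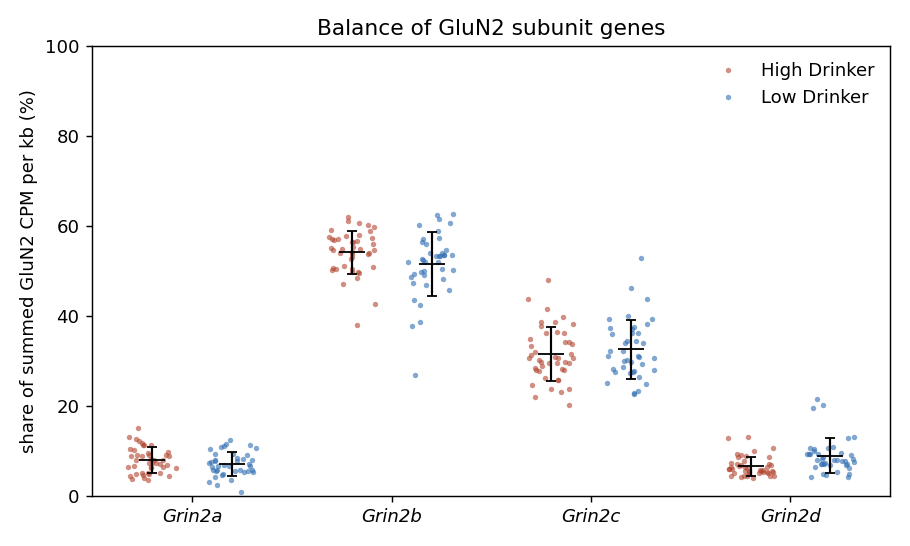
Share of each GluN2 gene in the summed GluN2 level (CPM per kb, percent) per library, High Drinker left of Low Drinker; points are animals and bars are the mean and SD. Grin2b took the largest mean share in both groups, 54.1% in High Drinker against 51.5% in Low Drinker animals.

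Animals with much Grin2a also had much Grin2b. After line, sex and sheet set were removed, residual log2 CPM of the pair correlated with Pearson r = 0.85 and Spearman rho = 0.80 over 84 libraries (two-sided permutation test, p = 1e-05 for both, the smallest that 100000 resamples can give; adjusted p = 0.000114 over 91 relations for r). Without the 2 libraries farthest from the median of Grin2a, r was 0.80. It was 0.87 in sheet set 1 and 0.82 in sheet set 2, and 0.83 in High Drinker against 0.87 in Low Drinker animals. The difference between lines was not past the threshold for this pair (permutation test, p = 0.698) or for any of the 21 pairs after adjustment, with 1 pair, Grin2d with Grin3a, under an unadjusted 0.05 (p = 0.0414, adjusted p = 0.757, r of 0.50 in High Drinker against 0.10 in Low Drinker animals). In all, 13 of 21 pairs passed an adjusted p of 0.05. The share of pairs of other genes that pass the same test was not computed, so this count is not read as a trait of the members. The pairs with Grin3b are not read further, since counts of 2 to 26 carry large counting error. Grin1 and Grin3a ran against each other, with r = -0.31 and rho = -0.35 (permutation test, p = 0.00444 and 0.00099, adjusted p = 0.0139 and 0.00429), r = -0.26 without the 2 farthest libraries, and -0.16 in sheet set 1 and -0.72 in sheet set 2.

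The libraries also differed in how their reads were spread over long and short genes, and Grin2a and Grin2b moved with that balance. A length index was computed for each library as the mean centred log2 CPM of the 1707 longest tested genes minus that of the 1708 shortest, the members left out. It ran from -0.29 to 0.26 in High Drinker animals (mean 0.04 ± 0.14, SD) and from -0.73 to 0.35 in Low Drinker animals (mean -0.05 ± 0.20), the lowest in Low Drinker 8, and 29 of 44 High Drinker animals lay above the Low Drinker median. Residual Grin2b correlated with it at r = 0.83 and rho = 0.76, and Grin2a at r = 0.83 and rho = 0.76 (permutation test, p = 1e-05 for each, adjusted p = 0.000114 for r). Without the 2 libraries farthest from the median index, r was 0.78 for Grin2b and 0.75 for Grin2a. In sheet sets 1 and 2, r was 0.85 and 0.81 for Grin2b, and 0.83 and 0.83 for Grin2a. Grin3a followed it less closely, with r = 0.42 and rho = 0.39 (permutation test, adjusted p = 0.000834 and 0.00119; r = 0.43 without the 2 farthest, 0.50 in set 1 and 0.33 in set 2). Grin1 (r = 0.21, adjusted p = 0.102), Grin2c (r = -0.21, adjusted p = 0.102) and Grin2d (r = -0.09, adjusted p = 0.477) did not pass by the same permutation test.

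With the length index added to the model, a setting chosen after seeing the data, the line difference of Grin2b was 0.14 on the log2 scale and no longer passed (edgeR quasi-likelihood test, adjusted p = 0.0718). That of Grin2a became 0.12 (adjusted p = 0.599). The difference of Grin2c was 0.19 and passed (adjusted p = 0.0232), and 500 of all genes passed against 672 without the index. The correlation of Grin2a with Grin2b was r = 0.53 with the index removed. What sets the index of a library was not tested.

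**Figure D4:**
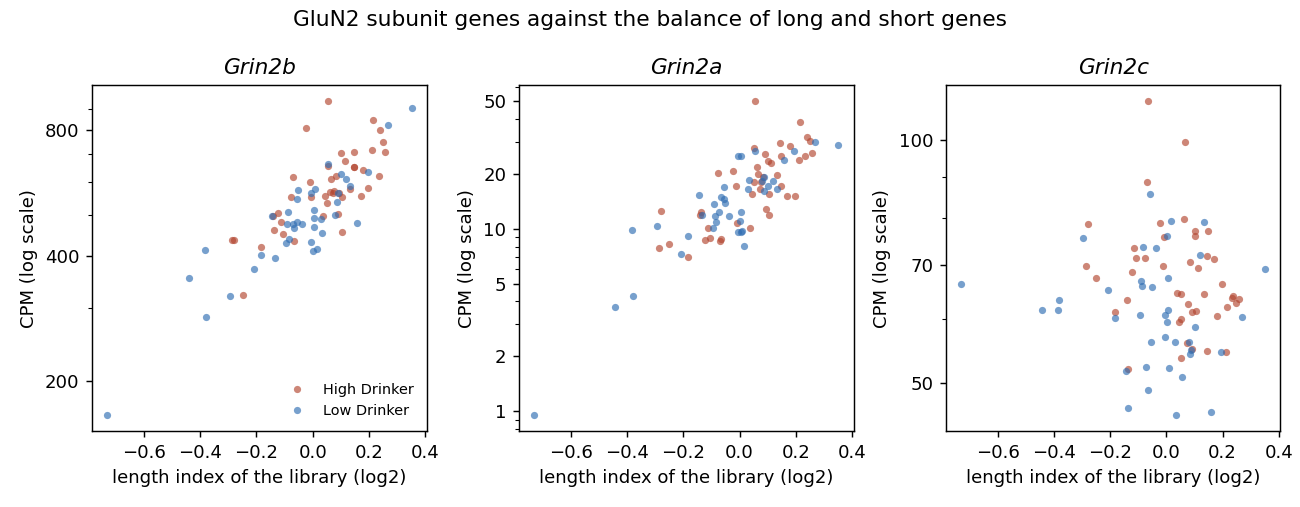
CPM (log axis) of Grin2b, Grin2a and Grin2c against the length index of each library (log2 units, longest minus shortest tested genes), 1 point per animal, coloured by line. Grin2a and Grin2b are higher where the index is higher, with r = 0.83 each for residual values, and Low Drinker 8 lies at its low end, at -0.73.

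Dissection content was read from marker genes of the cell types present in or beside the striatum. No medium spiny neuron marker of 16 was at 0 in any library, and their summed level ran from 1206.6 to 15013 CPM in High Drinker animals (median 5514) and from 819 to 12728 CPM in Low Drinker animals (median 4774). In the line difference 0 of these 16 passed by edgeR, limma-voom or DESeq2, and 0 had an unadjusted p under 0.05. Of their fold changes 15 were positive (50.6% over all tested genes), with a median of 0.14 on the log2 scale, beside the median of 0.13 over the 7 receptor genes. The relation with the averaged score of these markers was positive for some receptor genes and negative for others, as given below. Markers of cortical glutamatergic neurons were present in every library too, summing to between 374 and 3833 CPM in High Drinker animals (median 2181) and between 684 and 4454 CPM in Low Drinker animals (median 2280), with 0 of 12 past the threshold by the 3 tools and 0 at an unadjusted p under 0.05. Residual Grin2a was higher where the averaged cortical score was higher (r = 0.50, rho = 0.51; permutation test, adjusted p = 0.000114 and 8.27e-05; 0.48 without the 2 farthest libraries, 0.56 in set 1 and 0.42 in set 2), as did Grin1 (r = 0.42, rho = 0.48; adjusted p = 0.000273 and 8.27e-05; 0.40 without the 2 farthest, 0.28 in set 1 and 0.69 in set 2). Grin2c ran the other way (r = -0.41, rho = -0.43; permutation test, adjusted p = 0.00104 and 0.00052; -0.40 without the 2 farthest, -0.37 in set 1 and -0.57 in set 2). Of the 70 relations of a member with a marker score or the length index, 34 passed an adjusted p of 0.05. The share among relations of other genes was not computed, so this count is not read as a trait of the members. For Grin1 the strongest was with the striatal interneuron score (r = -0.53, rho = -0.60; permutation test, adjusted p = 0.000114 and 8.27e-05; -0.52 without the 2 farthest, -0.43 in set 1 and -0.73 in set 2). Grin2b was more weakly related to the cortical score (r = 0.27, rho = 0.25; permutation test, adjusted p = 0.0278 and 0.0466; 0.24 without the 2 farthest, 0.38 in set 1 and 0.13 in set 2). Grin2c was higher with the medium spiny neuron score (r = 0.33, rho = 0.39; permutation test, adjusted p = 0.00965 and 0.0015; 0.34 without the 2 farthest, 0.33 in set 1 and 0.39 in set 2) and with that of endothelial and mural cells (r = 0.36, rho = 0.42; permutation test, adjusted p = 0.00412 and 0.00049; 0.39 without the 2 farthest, 0.33 in set 1 and 0.41 in set 2). Grin1 (r = -0.33, adjusted p = 0.00955), Grin2a (r = -0.28, adjusted p = 0.0243) and Grin2d (r = -0.30, adjusted p = 0.0167) were lower with the medium spiny neuron score, by the same permutation test. In sets 1 and 2, r was -0.18 and -0.64 for Grin1, -0.34 and -0.25 for Grin2a, and -0.38 and -0.12 for Grin2d. Grin2b (r = -0.06, adjusted p = 0.639) and Grin3a (r = -0.15, adjusted p = 0.262) did not pass, and Grin3b, near the limit of detection, had r = 0.49. For Grin3a the sets had opposite signs, with r = -0.37 in set 1 and 0.40 in set 2. Its r with the cortical score also changed sign, from 0.49 in set 1 to -0.45 in set 2 (0.24 in all). The r of Grin3a over all libraries therefore does not describe either set. The relation of Grin2c with the astrocyte score (r = -0.15, permutation test, adjusted p = 0.259) did not pass. Nor did that of Grin2d with the striatal interneuron score (r = 0.03, permutation test, adjusted p = 0.797). With the medium spiny neuron and cortical scores as covariates the line differences were 0.28 for Grin2b (edgeR, adjusted p = 0.00968) and 0.16 for Grin2c (adjusted p = 0.0325). Among the remaining marker lists, 1 gene of 12 for striatal interneurons (Cort, the neuropeptide cortistatin) and 1 of 6 for oligodendrocyte precursors (Cspg4, the NG2 proteoglycan) were higher in High Drinker animals, with 4 of 12 and 4 of 6 at an unadjusted p under 0.05, against 18% of all genes. Within 5 Mb of Cort 31 of 97 tested genes passed (31.96%), and within 5 Mb of Cspg4 13 of 106 (12.3%). For astrocytes (2 of 9 at an unadjusted p under 0.05), oligodendrocytes (0 of 8), microglia (0 of 6), endothelial and mural cells (1 of 6), and choroid plexus and ependyma (1 of 5), 0 passed by edgeR, limma-voom or DESeq2.

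**Figure D5:**
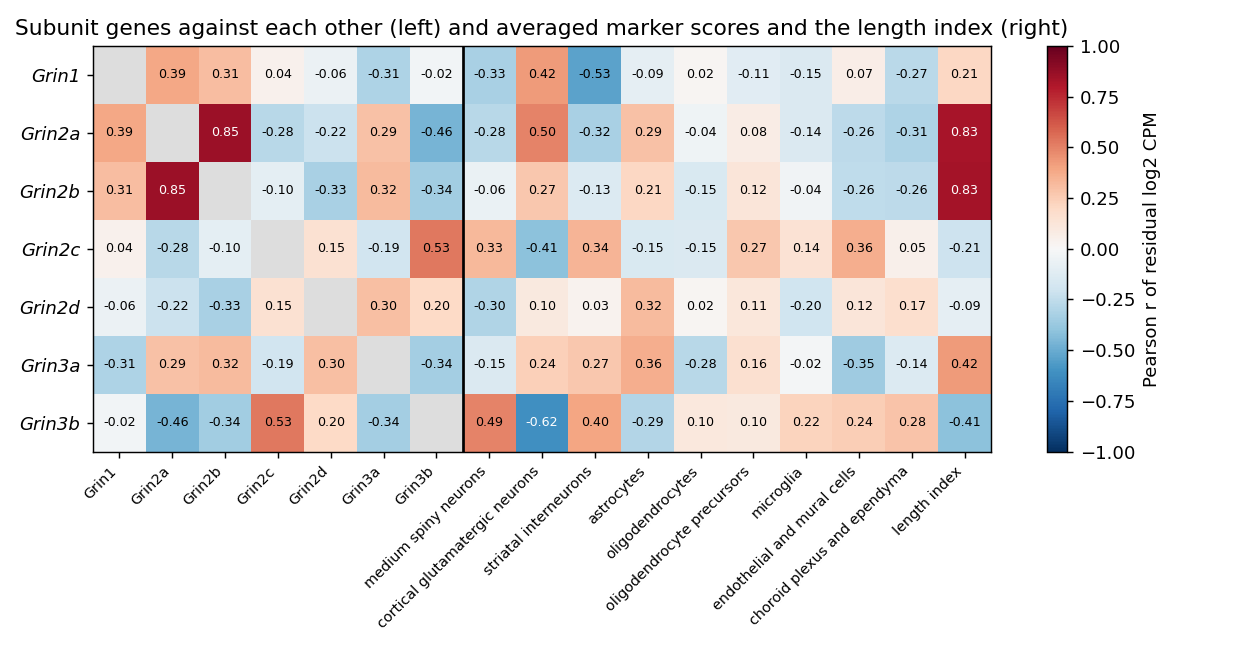
Pearson r of residual log2 CPM over 84 libraries for pairs of NMDA receptor genes (left) and for each gene with the averaged marker scores and the length index (right). The pair Grin2a and Grin2b stands at r = 0.85, and both genes stand at r = 0.83 with the length index.

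For each gene with at least 1 CPM, the 3 genes of highest residual correlation among 11284 candidates were listed as a description. Grin2a was closest to Arfgef3 (r = 0.95), Stxbp5l (0.95), a regulator of vesicle fusion, and Fam135b (0.94). Grin2b was closest to the corepressor Ncor1 (0.90), the adhesion receptor Adgrl3 (0.89) and Gucy1a2 (0.88), a subunit of soluble guanylate cyclase. These 6 genes had r between 0.88 and 0.92 with the length index as well. The nearest genes of Grin1 did not follow the index so closely: Dmtn (0.87), Osbp2 (0.87) and Dagla (0.86), the enzyme that makes the endocannabinoid 2-AG, had r with the index of -0.01, 0.16 and 0.32. Grin2c was closest to Nckap5l (0.77), the anion exchanger Slc4a3 (0.76) and the kinase Mknk1 (0.74), and Grin2d to the transcription factor Ebf4 (0.82), the integrin subunit Itga3 (0.79) and the semaphorin Sema4g (0.75). Grin3a was closest to the calcium/calmodulin-dependent kinase subunit Camk2d (0.82), to Dner (0.82) and to the potassium channel Kcnd3 (0.80).

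Genes that act on or supply the receptor were read against the 3.94% of all genes past the threshold. Of 32 genes for scaffolds, adhesion partners and transport, 1 was higher and 0 lower in High Drinker animals, with 9 at an unadjusted p under 0.05 (against 18% of all genes). Of the 32 fold changes 28 were positive (50.6% over all tested genes), with a median of 0.08. The 1 that passed was Kif17, the dendritic kinesin known to carry GluN2B-containing vesicles in mouse neurons, at 48.1 ± 13.7 CPM in High Drinker against 35.9 ± 8.20 CPM in Low Drinker animals (SD; log2 fold change 0.40, edgeR adjusted p = 0.00128). It kept this call with the length index as a covariate (0.46, adjusted p = 0.000195). Kif17 lies on chromosome 4, where 29 of the 151 tested genes within 5 Mb (19.2%) passed in the same comparison, against 3.94% of all genes. Around Grin2b 0 of 44 tested neighbours within 5 Mb passed, and around Grin2c 8 of 147 (5.44%).

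Of 32 kinases, phosphatases and other enzymes on the receptor, 0 were higher and 1 was lower, with 6 at an unadjusted p under 0.05. This was Cdk5, a proline-directed kinase that phosphorylates GluN2A, at 107 ± 9.69 CPM in High Drinker against 118 ± 15.4 CPM in Low Drinker animals (log2 fold change -0.13, edgeR adjusted p = 0.0261), and the call was lost without the 5 libraries that stand apart (adjusted p = 0.0892) and with the length index (adjusted p = 0.220). Of 24 co-agonist supply genes 17 were tested, with 2 higher and 1 lower, and 5 at an unadjusted p under 0.05. Gldc, which breaks down glycine in the glycine cleavage system, was at 31.5 ± 4.18 CPM in High Drinker against 27.5 ± 4.37 CPM in Low Drinker animals (0.20, edgeR adjusted p = 0.00472). The serine and alanine exchanger Slc1a4 was higher by 0.11 (edgeR adjusted p = 0.0381), and Gcsh, the carrier protein of the glycine cleavage system, was at 38.6 CPM in High Drinker against 41.5 CPM in Low Drinker animals (-0.11, edgeR adjusted p = 0.0464). The last 2 calls did not hold without the 5 libraries (adjusted p = 0.0760 and 0.185). Of 14 genes of glutamate supply and uptake, 1 was higher and 0 lower: Glul, the glutamine synthetase of astrocytes, at 1085.4 ± 105 CPM in High Drinker against 947 ± 154 CPM in Low Drinker animals (0.21, edgeR adjusted p = 0.00126), and 41 of 44 High Drinker animals exceeded the median of Low Drinker animals. Within 5 Mb of Glul on chromosome 1, 11 of 68 tested genes (16.2%) passed.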

How the data were processed

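Gene-level read counts (whole numbers, not normalized) were deposited by the authors for 84 libraries, with each gene's counted length in bases in another column. Per the labels' protocols, RNA was extracted with Trizol, amplified as cDNA with an Ovation kit and sequenced as single-end reads of 100 bp, 6 libraries per lane. The tools named in the submitters' processing notes are edgeR, STAR, FastQC and Subread's featureCounts, on build mm10; tool versions, strandedness and the handling of multi-mapped reads were not given in the sources used here. Entries naming no gene numbered 0 (a share of 0%). Symbols were found for 42462 of 43629 identifiers.

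Line, sex and line-by-sex differences were tested with edgeR 4.0.16 in R 4.3.3 (TMM, filterByExpr by groups of line and sex, quasi-likelihood F-test, terms for sheet set, sex and line), with Benjamini-Hochberg adjustment over 17071 genes. Sheet sets (48, 30 and 6 libraries) were inferred from the numbering of titles and may not be batches. High and Low Drinker libraries numbered 30 and 18 in set 1, 11 and 19 in set 2, and 3 and 3 in set 3. Variability used limma 3.58.1 on log2 CPM (prior count 2). Correlations used residual log2 CPM and 100000 permutations, in Python 3.11.15 with numpy 2.4.6 and scipy 1.17.1, and figures used matplotlib 3.10.9. Alternatives used RLE, no filter, DESeq2 1.42.0, limma-voom, surrogate variables from sva 3.50.0, single sets and sexes, marker scores, and libraries left out. The line and variability tests were also run on simulated data that held no structure from sheet sets, dissection or gene length. The outcome is not used as support here. At these depths counting error is small beside the spread between animals for every member but Grin3b; amplified cDNA holds duplicate molecules that counts cannot tell apart. P-values treat animals as independent, since families are not stated.

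All 7 members are named, together with list genes past the threshold and, for members of at least 1 CPM, the 3 nearest of the genes of at least 5 CPM. The members and lists were chosen with earlier results of these data known, as were the 5 libraries said to stand apart.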

Additional observations from a re-analysis of the deposited data

How the results depend on the processing

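Grin2b was positive under 18 of 18 alternatives and passed in 13; the call was lost in sheet set 1 (0.36), sheet set 2 (0.19), females (0.26) and males (0.35) alone, with fewer samples, and with the length index (0.14), against 0.29 in all; marker scores (0.28) and surrogate variables (0.26) kept it. Grin2c was positive in 18 of 18 and passed in 6, Grin2a passed in 1 (5 surrogate variables, 0.37, adjusted p = 0.0114), and Grin2d was negative in 18 of 18 and passed in 0. Against 2 members past the threshold, 1 passed with RLE, with no filter on low counts, without the sheet set term, without sheet set 3, without the 5 libraries that stand apart, with either other setting of the low-count filter and with the length index (the last 3 chosen after seeing the data), and 0 passed in set 1, set 2, females or males alone. With 1 library left out (High Drinker 11 or Low Drinker 8, settings also chosen after seeing the data) between 1 and 2 members passed, Grin2c being lost without Low Drinker 8 (adjusted p = 0.0506). Over all genes 672 became 425 without the 5 libraries, 79 in set 1, 79 in set 2, 35 in females, 107 in males, 1069 with marker scores and 2490 with surrogate variables, and between 469 and 681 with 1 library left out. Among the 13 pairs past the threshold, correlations changed sign for Grin1 with Grin2b (-0.0848 in sheet set 2, 0.31 in all), Grin2d with Grin3a (-0.23 in sheet set 2, 0.30 in all), and, with the length index removed, for Grin2a with Grin3a (-0.12, 0.29 before) and Grin2b with Grin3a (-0.0664, 0.32 before); the cause was not tested. Of the pairs not past the threshold, 5 had opposite signs in sheet sets 1 and 2, among them Grin1 with Grin2c (0.38 and -0.46) and Grin2c with Grin3a (-0.50 and 0.29). GluN2 shares by coding length moved by more than the SD between animals for all 4 genes. No paired analysis was possible because replicate numbers only name animals within a line. Depth limits the precision of Grin3b.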
